A study of Mus musculus with 8 samples.

Results

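The 9 genes described here encode the enzymes, and 1 helper protein, that make eicosanoids from arachidonic acid: Pla2g4a, Alox5, Alox5ap, Lta4h, Ltc4s, Ptgs1, Ptgs2, Tbxas1 and Alox12. They were taken by symbol from a table of read counts with 21878 gene symbols, and each symbol was found in 1 row. RNA was sequenced from peripheral blood of wild-type female C57BL/6 mice aged 6 to 8 weeks. The 4 samples of the stress group came from mice restrained for 6 hours in a ventilated tube, and the 4 samples of the control group came from littermates left unrestrained in their cage, while both groups went without food and water. The sources do not say whether a sample was 1 mouse or several, so the p-values measure the spread between these samples.

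Eicosanoids are short-lived lipid signals that cells make on demand. Cytosolic phospholipase A2 frees arachidonic acid from membranes, after which lipoxygenases lead to leukotrienes and hydroxy acids and cyclooxygenases lead to prostaglandins and thromboxane. In blood, platelets are known for thromboxane and for the product of the platelet lipoxygenase, while neutrophils and monocytes are known for leukotrienes.

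After restraint, 6 of the 7 enzyme genes with enough counts to be tested were higher relative to the typical gene of the same library, by log2 fold changes of 0.67 to 1.06, and Lta4h was not. These were Alox5ap, Tbxas1, Alox12, Pla2g4a, Ptgs1 and Alox5, in falling order of their change. All 6 passed at an adjusted p below 0.05, where 10.4% of all tested genes were higher (edgeR). Ltc4s and Ptgs2 were too scarce to test in blood of either group. With total counts as the only scaling, the 6 genes stayed near the control level and Alox5 turned to a log2 fold change of -0.070. Lta4h was the gene that differed (-0.86), but the median of all tested genes was -0.82 on that scale. There 5811 of all 11718 tested genes were lower at an adjusted p below 0.05 (edgeR). The direction thus rests on what the counts are compared with.

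Libraries held 31471145 to 39014775 counts for the control and 25978683 to 29655725 for the stress group. Haemoglobin genes took 51.9% to 63.8% and 61.2% to 75.5% of them, and the lowest of the stress libraries, replicate 4, lay within the control range. Counts were given as CPM, a share of the library's size after TMM scaling, which sets the typical gene to no change. The TMM factors were 1.01 to 1.77 for control and 0.507 to 1.10 for stress libraries. Over the 11718 genes tested, the median difference on the log2 scale was -0.03 with TMM and -0.82 with total counts alone. A gene was tested if it had at least 10 counts in at least 4 samples.

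To show the DNA in front of the genes that moved together, the 250 bases before the RefSeq start (GRCm38.p6) are printed for 4 of them and for Lta4h. None of these windows held an annotated exon base, and for Pla2g4a, which has 2 entries, the one at the start of the gene was taken. RefSeq entries were matched for 8 of the 9 genes and none for Alox5ap. Capitals mark GAGGAA, the core letters of ETS factors such as PU.1, and GGGCGG, the GC box, each on either strand.
Alox12, chr11:70255371-70255620 (minus strand): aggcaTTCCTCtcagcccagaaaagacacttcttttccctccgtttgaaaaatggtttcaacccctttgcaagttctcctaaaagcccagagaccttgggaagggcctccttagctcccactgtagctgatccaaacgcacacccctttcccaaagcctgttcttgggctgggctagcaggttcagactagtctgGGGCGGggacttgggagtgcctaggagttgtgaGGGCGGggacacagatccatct
Ptgs1, chr2:36230176-36230425 (plus strand): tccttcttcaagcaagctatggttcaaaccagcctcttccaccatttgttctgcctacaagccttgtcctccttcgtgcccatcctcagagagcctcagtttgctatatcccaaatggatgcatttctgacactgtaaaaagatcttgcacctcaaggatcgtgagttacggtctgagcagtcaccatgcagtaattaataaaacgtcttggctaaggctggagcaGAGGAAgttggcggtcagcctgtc
Alox5, chr6:116461179-116461428 (minus strand): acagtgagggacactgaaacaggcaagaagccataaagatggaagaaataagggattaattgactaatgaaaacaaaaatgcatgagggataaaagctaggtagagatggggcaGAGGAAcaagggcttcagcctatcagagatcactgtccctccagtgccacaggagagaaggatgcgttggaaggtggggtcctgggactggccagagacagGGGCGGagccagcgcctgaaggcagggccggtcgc
Pla2g4a, chr1:149961291-149961540 (minus strand): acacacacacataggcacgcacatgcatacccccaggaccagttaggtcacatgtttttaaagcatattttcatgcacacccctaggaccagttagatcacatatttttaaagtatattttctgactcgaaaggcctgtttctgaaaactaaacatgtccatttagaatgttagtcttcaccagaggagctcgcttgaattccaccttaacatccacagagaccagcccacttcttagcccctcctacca
Lta4h, chr10:93453146-93453395 (plus strand): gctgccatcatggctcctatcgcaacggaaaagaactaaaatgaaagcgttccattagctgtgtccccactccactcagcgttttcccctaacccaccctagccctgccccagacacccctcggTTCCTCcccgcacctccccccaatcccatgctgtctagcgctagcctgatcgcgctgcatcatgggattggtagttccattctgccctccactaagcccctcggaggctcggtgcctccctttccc

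The ETS letters stood in the window of 6 of the 8 matched genes (Alox12, Alox5, Lta4h, Ptgs1, Ptgs2 and Tbxas1), against 23.3% of the 32851 windows of the same length in the table. They were in the window of Lta4h, which did not move, and not in that of Pla2g4a, which did. The GC box stood in 3 of 8 (Alox12, Alox5 and Ptgs2; 32.7% of all windows), with 2 copies before Alox12. TGTGGT, the letters of RUNX factors, stood in 2 of 8 (Ltc4s and Ptgs2; 14.0% of all windows), and AGATAA, the letters of GATA factors, in 0 of 8 (9.99% of all windows). The 4 letter sets were searched on both strands, and no pair of matches overlapped in the printed windows. Among the windows not printed, those of Tbxas1, Ptgs2 and Ltc4s held 146, 183 and 84 annotated exon bases. The window of Tbxas1 (chromosome 6, 38918736 to 38918985) lay inside the annotated gene, which starts at 38875404.

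Levels between genes were compared per kilobase of annotated exon (RPKM, on the TMM scale). In the control group Alox12 was the most abundant, at 53.2 ± 10.9 RPKM (SD, n = 4), followed by Alox5ap at 44.5 ± 8.40. The SDs of these neighbours overlapped, but Alox12 was the higher within each control library. Its values against those of Alox5ap were 63.0 and 49.5, 44.8 and 37.9, 42.8 and 36.9, and 62.2 and 53.7 RPKM. Ptgs1 followed at 6.68 ± 1.61, Lta4h at 2.93 ± 0.0684, Tbxas1 at 1.88 ± 0.456, Alox5 at 1.23 ± 0.244 and Pla2g4a at 0.834 ± 0.141 (SD, n = 4 each). In the stress group Alox12 reached 101 ± 8.86 RPKM and Alox5ap 92.9 ± 19.7. Alox12 was the higher in each stress library except replicate 3 (107.6 against 121.3 RPKM). In the same group Tbxas1 (3.69 ± 0.332) stood above Lta4h (2.79 ± 0.0696). The control order of these 2 was the reverse. Such orders rest on the exon lengths used (9094 bases for Tbxas1 and 6102 for Lta4h), which pool all annotated transcripts. Without a length, the control means of Tbxas1 and Lta4h were close, at 17.1 and 17.9 CPM, and the stress means were 33.6 and 17.0 CPM.

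The platelet lipoxygenase gene Alox12 (chromosome 11, 70241457 to 70255353, positions here and below from GENCODE M21 on GRCm38) makes the 12-hydroxy acid of arachidonic acid. Its counts were 9473, 9467, 12108 and 8060 in control replicates 1 to 4 and 9262, 9355, 5791 and 11250 in stress replicates 1 to 4. As CPM these were 257, 183, 175 and 254 for control and 413, 434, 439.5 and 360.2 for stress samples. Raw counts overlapped between the groups, and once scaled by TMM all stress samples exceeded all control samples. The mean rose from 217 ± 44.4 to 412 ± 36.2 CPM (SD, n = 4), by 0.92 ± 0.17 on the log2 scale (standard error; adjusted p = 0.00402, quasi-likelihood test of edgeR). Per total counts the means were 284 ± 25.7 and 316 ± 71.5 CPM (SD, n = 4), with overlapping groups.

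Ptgs1, the constitutive cyclooxygenase of platelets (chromosome 2, 36230426 to 36252272), had 30.5, 22.2, 19.1 and 32.0 CPM in the control samples and 45.1, 49.9, 49.3 and 41.7 CPM in the stress samples. The highest control sample, replicate 4, lay well under the lowest stress sample. Its log2 fold change was 0.84 (standard error 0.15, adjusted p = 0.00363, edgeR). Tbxas1 (chromosome 6, 38875404 to 39084585) encodes thromboxane synthase, the next step after Ptgs1 in platelets. It had 17.9, 14.7, 13.1 and 22.5 CPM in the control samples and 35.2, 33.5, 36.3 and 29.4 CPM in the stress samples. The groups did not overlap, and the log2 fold change was 0.98 (standard error 0.15, adjusted p = 0.00168, edgeR). Of the exon bases of Tbxas1, Ptgs1 and Alox5ap, 144, 148 and 189 are shared with a gene on the opposite strand, and the strand setting of the counting is not given in the sources used here.

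Pla2g4a (chromosome 1, 149829618 to 149961290), the cytosolic phospholipase A2 that supplies both branches, had 6.22, 4.37, 4.76 and 5.96 CPM in the control samples and 8.56, 10.5, 11.3 and 8.93 CPM in the stress samples. All stress samples lay above all control samples (log2 fold change 0.88, standard error 0.15, adjusted p = 0.00283, edgeR). Its raw counts were 189 to 329 for control and 149 to 279 for stress samples.

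On the leukotriene branch, Alox5ap (chromosome 5, 149264767 to 149288153) encodes FLAP, the membrane protein that hands arachidonic acid to 5-lipoxygenase. It had 70.3, 53.9, 52.3 and 76.3 CPM in the control samples and 117, 129, 172 and 110.0 CPM in the stress samples. The highest value was that of stress replicate 3, the library with the largest haemoglobin share (75.5%). The mean rose from 63.2 ± 11.9 to 132 ± 28.0 CPM (SD, n = 4), by 1.06 ± 0.17 on the log2 scale (standard error; adjusted p = 0.00186, edgeR). The log2 fold change fell under 1 without stress replicate 3 (0.92, adjusted p = 0.00197), without control replicate 2 (0.99, adjusted p = 0.0116) and without control replicate 3 (0.98, adjusted p = 0.00748; edgeR).

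Alox5 (chromosome 6, 116410077 to 116461178), the 5-lipoxygenase itself, had 5.71, 4.66, 3.83 and 6.02 CPM in the control samples and 8.52, 7.65, 7.44 and 8.16 CPM in the stress samples. The groups did not overlap, but the change was the smallest of the 6 (log2 fold change 0.67, standard error 0.16, adjusted p = 0.0147, edgeR). It missed an adjusted p of 0.05 without control replicate 2 (0.0596) and without control replicate 3 (0.0513).

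Lta4h (chromosome 10, 93453411 to 93484875), the hydrolase that turns leukotriene A4 into leukotriene B4, stood apart from these genes. It had 17.9, 17.8, 18.4 and 17.4 CPM in the control samples and 16.7, 16.8, 16.9 and 17.6 CPM in the stress samples. The means were 17.9 ± 0.418 and 17.0 ± 0.425 CPM (SD, n = 4) and the groups overlapped (log2 fold change -0.07, standard error 0.09, adjusted p = 0.644, edgeR). Its raw counts were 657, 921, 1273 and 551 in the control samples and 374, 363, 223 and 551 in the stress samples, and those of the groups touched at 551. On total counts alone it was lower, by a log2 fold change of -0.86 against -0.82 for the median gene (adjusted p = 0.033, edgeR).

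**Figure D1:**
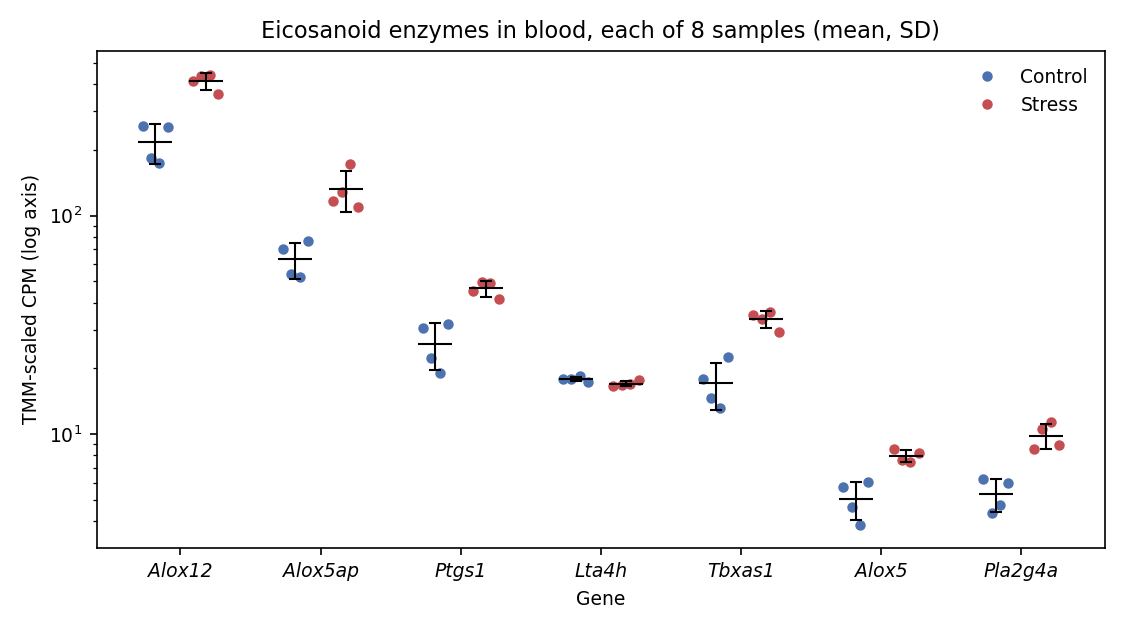
TMM-scaled CPM (log axis) of the 7 tested genes in each of the 8 samples, with control in blue, stress in red, bars for the group mean and lines for the SD (n = 4). The stress samples of 6 genes lie above all their control samples, as in 11.1% of all tested genes, while those of Lta4h (17.0 against 17.9 CPM on average) do not. Scaled by total counts alone, the groups of all 7 genes overlap.

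The last 2 genes were close to the detection limit. Ptgs2, the inducible cyclooxygenase (chromosome 1, 150100031 to 150108227), had 10, 2, 6 and 2 counts in the control samples and 6, 10, 0 and 15 in the stress samples. Ltc4s, which joins leukotriene A4 to glutathione (chromosome 11, 50236461 to 50238616), had 5, 2, 8 and 3 counts in the control samples and 3, 7, 0 and 2 in the stress samples. Neither reached the count filter, so neither was tested. The 0 counts of both genes in stress replicate 3 allow a level of up to 0.228 CPM (3 counts in that library; counting error only).

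At the thresholds of the study (log2 fold change above 1 and adjusted p below 0.01), Alox5ap was called up (1 of 7 tested), against 1.69% of all tested genes. The number called down was 0, and 0 were lower at an unadjusted p below 0.05 (edgeR) or with DESeq2. At an adjusted p below 0.05 without a fold threshold, 6 of 7 were higher, against 10.4% of all tested genes, and 0 of 7 were lower, against 3.69%. In the same 6 genes the lowest stress sample exceeded the highest control sample, as in 11.1% of all tested genes. The 7 genes were chosen with earlier results of these data known, so these shares describe them and are no test. The median log2 fold change of the 7 genes was 0.88 with TMM and 0.10 with total counts alone, that is, above the median gene by a similar distance on both scales. A change of scaling moves all genes by nearly the same amount, so this likeness follows from the method and is no separate result. On total counts alone the stress samples lay above all control samples in 0 of 7 genes, against 0.247% of all tested genes, and below them in 0 of 7, against 23.5%.

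**Figure D2:**
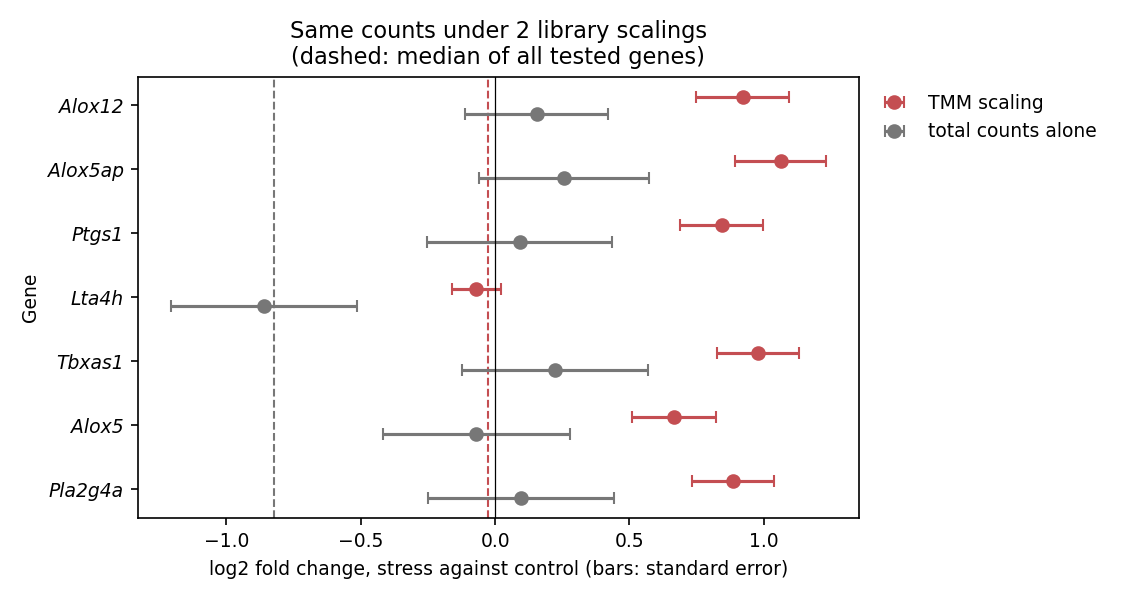
Log2 fold changes of the 7 tested genes (bars for the standard error) with TMM scaling in red and total counts alone in grey, with dashed lines at the median of all tested genes (-0.03 and -0.82). On each scale Lta4h sits beside the dashed line and the other 6 genes to its right, but on total counts alone these 6 lie near 0, from -0.070 for Alox5 to 0.26 for Alox5ap. A change of scaling moves all genes by nearly the same amount, so the like place beside the lines is no separate result.

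Because a ratio of 2 genes in a library does not depend on scaling, 5 pairs of enzymes were compared. The ratio of Alox5ap to Alox5 was 3.64 ± 0.10 on the log2 scale for control and 4.03 ± 0.36 for stress samples (SD, n = 4; p = 0.0571 in a two-sided exact permutation test, 0.214 after adjustment over the 5 pairs). The difference of 0.39 became 0.22 without stress replicate 3. That of Alox5 to Alox12 was -5.42 ± 0.10 and -5.69 ± 0.19 (p = 0.0857, adjusted 0.214, same exact test), and that of Alox5 to Ptgs1 differed by -0.20 (p = 0.171, adjusted 0.286, same exact test). For Ptgs2 to Ptgs1 the difference was 0.31 and for Ltc4s to Lta4h 0.26, with SDs between 0.71 and 1.82 and at most 15 counts of Ptgs2 or Ltc4s in a sample (p = 0.83 and 0.771, both 0.83 when adjusted, same exact test). No pair passed. The smallest p that 4 samples against 4 allow is 0.0286, so 1 pair alone could not have gone below 0.143 after adjustment.

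The balance of the 6 genes against Lta4h was looked at after the flat level of Lta4h had been seen, and is given without a test. In all 6 the ratio was higher in every stress sample than in every control sample. Lta4h was nearly constant on the TMM scale, so these ratios largely repeat the TMM separation of the same 6 genes. The share of all tested genes that separate from Lta4h in this way was not computed. For Alox12 the log2 ratio was 3.58 ± 0.32 for control and 4.59 ± 0.16 for stress samples (SD, n = 4). For Alox5ap it went from 1.80 ± 0.30 to 2.93 ± 0.30, and for Alox5 from -1.84 ± 0.33 to -1.10 ± 0.09 (SD, n = 4 each). The other 3 genes differed by 0.94 (Ptgs1), 0.96 (Pla2g4a) and 1.07 (Tbxas1).

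**Figure D3:**
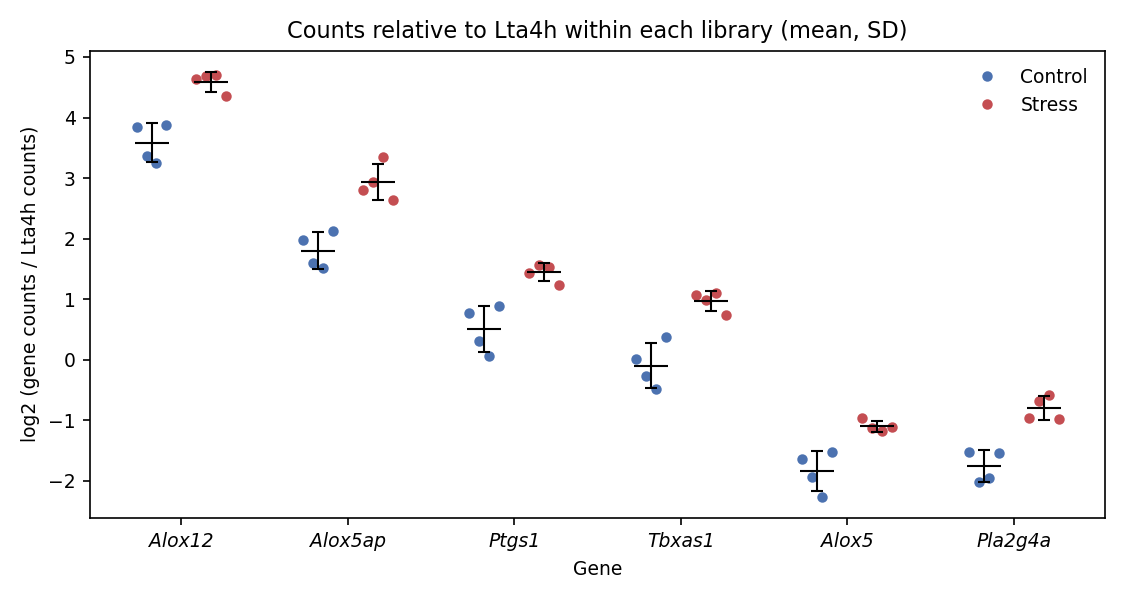
Log2 ratio of the counts of 6 genes to those of Lta4h within each library, with control in blue, stress in red, bars for the mean and lines for the SD (n = 4). The stress samples lie above the control samples in each of the 6 genes, by 0.74 for Alox5 up to 1.13 for Alox5ap on average. No library scaling enters these values, but Lta4h was nearly flat on the TMM scale, so they largely repeat the TMM separation of these genes.

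Blood is a mixture, and in bulk RNA more cells of a type and more RNA per cell cannot be told apart. Markers of the cells known for these enzymes moved in the same direction on the TMM scale. Marker RNA is not a cell count: by flow cytometry the study found more neutrophils in blood after restraint. Monocytes, T cells, B cells and NK cells were fewer there. All 14 platelet markers were higher at an adjusted p below 0.05 (median log2 fold change 0.99), and their summed level was 1803 to 2675 CPM for control and 4108 to 4789 CPM for stress samples. Ppbp, a platelet chemokine, had a log2 fold change of 0.99, as had Itga2b, the platelet integrin chain, and Tubb1, a platelet tubulin, had 0.82. Of 13 tested neutrophil markers 10 were higher (median 1.38, summed level 198 to 389 CPM and 608 to 889 CPM). Of their 3 most abundant, S100a9, a calcium-binding protein, and Mmp9, a gelatinase, were higher (50.4 ± 10.4 to 142 ± 29.8 CPM and 48.6 ± 15.4 to 95.2 ± 17.0 CPM; SD, n = 4), and Csf3r, the receptor for the neutrophil growth factor, did not pass (118 ± 36.5 and 209 ± 65.8 CPM, adjusted p = 0.0546, edgeR). Of 10 classical monocyte markers 6 were higher (median 1.06, 477 to 705 CPM and 954 to 1566 CPM). Lyz2, a lysozyme, and F13a1, which monocytes and platelets both carry, were higher (273 ± 38.0 to 679 ± 141 CPM and 48.3 ± 9.17 to 116 ± 9.29 CPM; SD, n = 4), and Ctsb, a cathepsin, did not pass (144 ± 58.2 and 260.4 ± 54.0 CPM, adjusted p = 0.0515, edgeR).

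Markers of the other blood cells moved in differing directions. Of 7 tested eosinophil and basophil markers 3 were higher and 1 lower, at a summed 22.0 to 31.3 and 50.9 to 59.3 CPM. The most abundant were Hdc, the histamine-forming enzyme (1.78), Gata2, a transcription factor (1.05), and Il5ra, the chain that binds interleukin 5 (-0.80), all at an adjusted p below 0.05. Epx, an eosinophil granule enzyme named here because it was near 0, had at most 3 counts in any sample. Of 9 B cell markers 6 were lower (median -0.51; 1036 to 1271 CPM and 702 to 923 CPM), with Cd79a at -0.23 and Cd79b at -0.22, which did not pass. Of 10 T cell markers 0 passed (edgeR; 0 also at an unadjusted p below 0.05 and with DESeq2; median -0.06; 535 to 579 CPM and 481 to 610 CPM), with Tcf7 at -0.16, Lck at 0.13 and Lat at 0.34. Of 8 tested red cell precursor markers 8 had a log2 fold change above 0 (median 1.06) and 2 passed as higher, with overlapping sums. The 3 most abundant, the haemoglobin genes Hbb-bs (1.08), Hba-a1 (1.03) and Hbb-bt (1.06), did not pass. On total counts alone the medians were 0.22 for platelet, 0.67 for neutrophil and 0.33 for classical monocyte markers.

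Each gene was also set against the summed counts of the 3 marker lists within its library. For Alox12 against the platelet markers the log2 ratio was -3.36 ± 0.0240 for control and -3.42 ± 0.0776 for stress samples (SD, n = 4), a difference of -0.05 (p = 0.286 in a two-sided exact permutation test, 0.429 after adjustment over the 21 ratios). For Tbxas1 the difference to platelet markers was 0.01 (p = 0.971 raw and adjusted, same exact test), for Alox5ap 0.07 (p = 0.80, adjusted 0.84), for Pla2g4a -0.10 (p = 0.171, adjusted 0.40) and for Ptgs1 -0.12 (p = 0.0857, adjusted 0.257). For these 5 genes the groups overlapped and no difference in ratio to the platelet markers was detected. Against neutrophil markers their differences were between -0.35 and -0.16, and against classical monocyte markers between -0.31 and -0.12, with wider spread. With the mean of the log2 marker counts in place of their sum, the differences to neutrophil markers were between -0.55 and -0.36, and for Ptgs1 and Tbxas1 the groups then did not overlap (p = 0.0286, adjusted 0.0857, same exact test). Without stress replicate 4 the difference of Alox5ap to neutrophil markers turned to 0.047.

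The largest differences were those of Alox5 and Lta4h, which lay lower relative to the markers. On the TMM scale the marker medians were 1.38 (neutrophil), 1.06 (classical monocyte) and 0.99 (platelet). A gene that does not change on that scale thus also lies lower relative to them. Lta4h (-0.07) was near the median of all tested genes (-0.03). The share of all tested genes with such differences was not computed. In 5 of the 21 ratios p was at the smallest value that the design allows, and the adjustment could then give no less than 0.12. The ratio of Alox5 to neutrophil markers differed by -0.54 and that to platelet markers by -0.32, with every stress sample below every control sample in both (p = 0.0286 each in the same exact test, adjusted 0.12). That to classical monocyte markers differed by -0.50, with overlapping groups (p = 0.0571, adjusted 0.20, same exact test). For Lta4h the differences were -1.28 against neutrophil, -1.24 against classical monocyte and -1.06 against platelet markers, each without overlap (p = 0.0286, adjusted 0.12, same exact test). The part that a change in blood cell numbers has in these results was not tested.

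**Figure D4:**
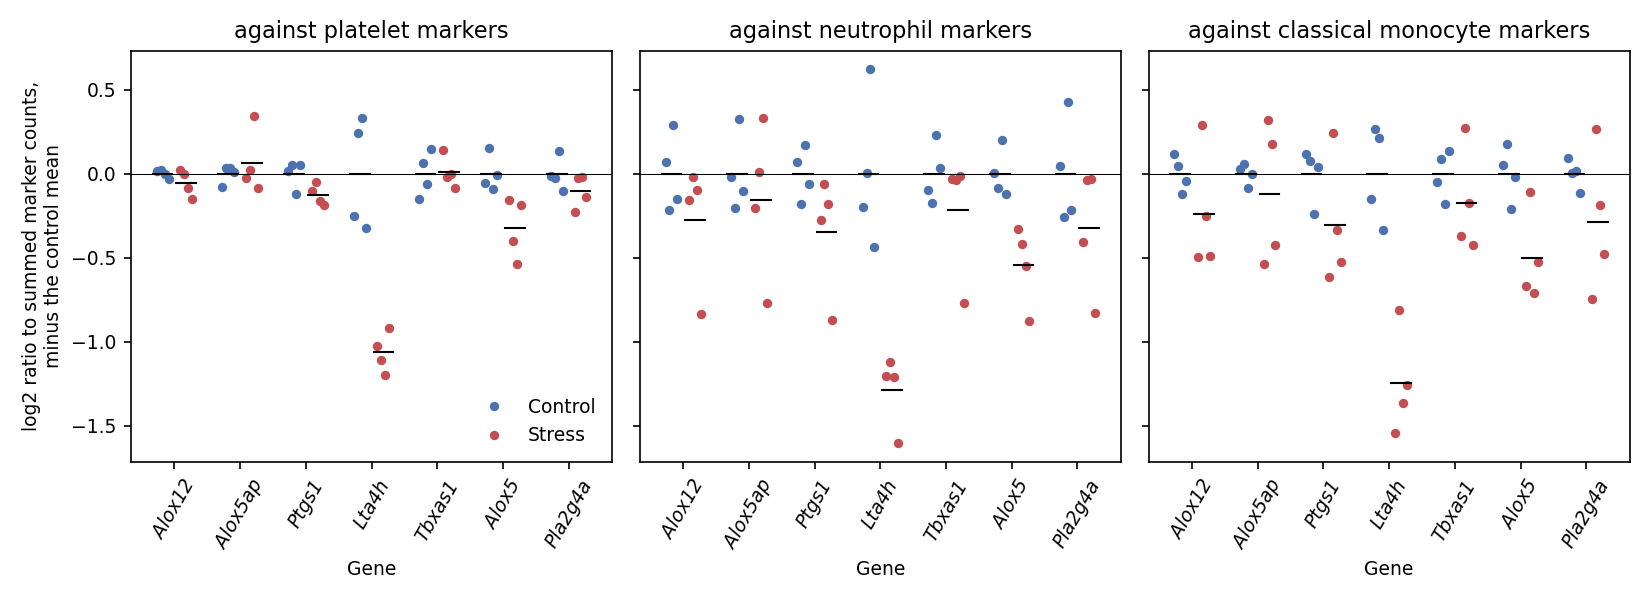
Log2 ratio of each of the 7 genes to the summed counts of platelet, neutrophil and classical monocyte markers within each library, less the control mean (control in blue, stress in red, lines for group means). Against platelet markers Alox12 (-0.05) and Tbxas1 (0.01) lie near 0 and Lta4h (-1.06) far below, and the points spread more widely against the other 2 lists.

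The genes whose profile over the 8 samples was closest to each of the 6 were named by the smallest root mean square difference of centred log2 CPM. This measure includes the difference between the groups, so close genes also share a like fold change. The share of platelet genes among all genes with such a change was not computed. For Alox5ap these were Pla2g12a (0.0419), a secreted phospholipase A2, Treml1 (0.0557), a platelet receptor, and Myl9 (0.0557), a myosin light chain. For Tbxas1 they were Gp5 (0.0617), a chain of the platelet receptor for von Willebrand factor, Ltbp1 (0.077) and P2rx1 (0.0811), a platelet ATP channel. For Ptgs1 they were Qsox1 (0.0509), Zyx (0.0534) and Sdpr (0.0616). For Pla2g4a they were Pdlim1 (0.0545), Pdlim7 (0.0556) and Arpc1a (0.057), and for Alox12 Arhgap10 (0.0367), Hist1h2be (0.0436) and Pttg1ip (0.0442). Alox5 was closest to Rab22a (0.0563), Mast2 (0.0678) and Pfkfb4 (0.073). Between the enzymes themselves, Ptgs1 and Alox12 were the closest pair of the 6 (0.0677) and Alox5 and Alox5ap the farthest (0.303), although their proteins work together.

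Around these enzymes, 60 other genes of the pathway in 7 lists were looked at, of which 40 were tested. Of these 6 were called up and 0 down at the thresholds of the study, against 1.69% of all tested genes called up, and 11 were higher and 2 lower at an adjusted p below 0.05, against 10.4% and 3.69% (median log2 fold change 0.29). The share that was lower was thus near that of all genes. The lists were chosen with earlier results of these data known, so these shares describe them and are no test. The list with the largest median (1.44) was that of the leukotriene and lipoxin receptors, of which 4 were tested and 3 called up. Ltb4r1, the high-affinity leukotriene B4 receptor, rose from 1.43 ± 0.343 to 3.70 ± 1.47 CPM (SD, n = 4; log2 fold change 1.34, adjusted p = 0.0096, edgeR). Cysltr2, a receptor for cysteinyl leukotrienes, rose from 5.57 ± 1.47 to 11.4 ± 1.19 CPM (1.05, adjusted p = 0.0025), and Fpr2, which binds lipoxin and formyl peptides, from 2.14 ± 0.695 to 6.10 ± 1.98 CPM (1.54, adjusted p = 0.00363). Of the exon bases of Fpr2 48 are shared with its near copy Fpr3. On total counts alone the log2 fold changes were 0.51 for Ltb4r1 (adjusted p = 0.259) and 0.32 for Cysltr2 (adjusted p = 0.42), which no longer passed, and 0.83 for Fpr2 (adjusted p = 0.0493, edgeR).

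Of 6 tested phospholipases, Pla2g7 (1.20), which breaks down platelet-activating factor, and Pla2g12a (1.06) were called up, and Pla2g4b was lower (-0.59, adjusted p = 0.042, edgeR). Of the 5831 exon bases of Pla2g4b 3878 are shared with other genes, so its counts are uncertain, and it passed in 1 of the 8 fits that left out a sample. Of 5 tested prostanoid synthases only Cbr1 was higher (0.66, adjusted p = 0.0318), in 2 of 8 such fits, and the groups overlapped. Of 6 tested genes of other lipoxygenases and leukotriene enzymes 0 passed with edgeR, 2 had an unadjusted p below 0.05, and 0 passed with DESeq2. Of 6 breakdown enzymes, Ephx1, an epoxide hydrolase, was lower (-0.43, adjusted p = 0.0195, edgeR; 5 of 8 such fits).

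Of 6 tested prostanoid receptors 2 were higher: Ptger2, a receptor for prostaglandin E2 (0.83, adjusted p = 0.049, edgeR; 2 of 8 fits with a sample left out), and Ptgir, the prostacyclin receptor (0.78, adjusted p = 0.0196; 5 of 8). Tbxa2r, the receptor for the product of Tbxas1, which was named after its values were seen, had 10.2 ± 0.454 and 9.66 ± 2.19 CPM (SD, n = 4; log2 fold change -0.09, adjusted p = 0.707). Of 7 genes for transport and regulation, Anxa1 was called up, from 10.7 ± 3.03 to 25.2 ± 5.18 CPM (SD, n = 4; 1.24, adjusted p = 0.00208, edgeR). It encodes annexin A1, known to hold back phospholipase A2 under glucocorticoids. Gpx4, a peroxidase of lipid hydroperoxides (0.89, adjusted p = 0.00499), and Mapkapk2, a kinase of 5-lipoxygenase (0.49, adjusted p = 0.00657), were also higher. On total counts alone none of these or of the phospholipases and synthases named as higher passed: Cbr1 (-0.13) and Mapkapk2 (-0.28) turned below 0, Ptgir (0.057), Gpx4 (0.072) and Ptger2 (0.10) were near 0, and Pla2g12a (0.26), Pla2g7 (0.50) and Anxa1 (0.51) were above it, with adjusted p between 0.187 and 0.896 (edgeR).

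**Figure D5:**
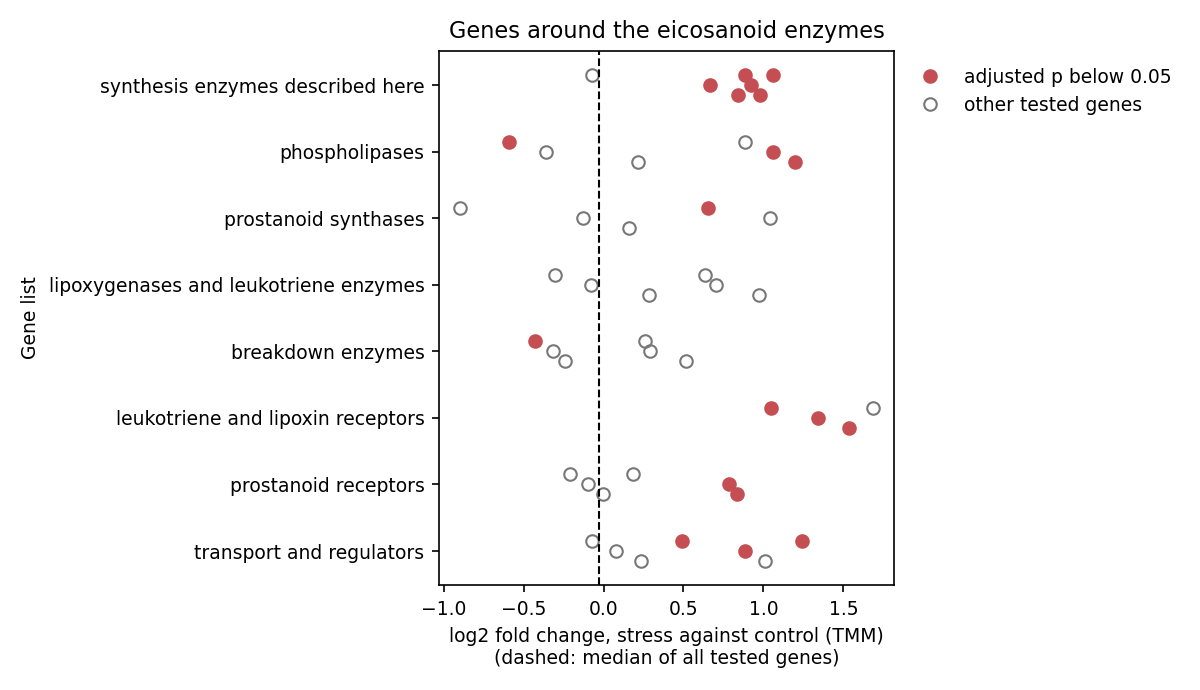
Log2 fold changes (TMM) of the tested enzymes described here and of 40 further genes in 7 lists, with filled points for an adjusted p below 0.05, open points for the others and a dashed line at the median of all tested genes (-0.03). The leukotriene and lipoxin receptors lie farthest to the right (median 1.44), and the prostanoid receptors and breakdown enzymes spread on both sides; on total counts alone Alox5, Cbr1 and Mapkapk2, which passed as higher here, were below 0.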

How the data were processed

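RNA of peripheral blood was sequenced for 4 control and 4 stress samples. The deposited table holds read counts for each symbol as the authors made them, not normalized. The submitters' processing notes name HISAT2, featureCounts and the build mm10 (GRCm38), while versions, annotation and strand setting are not given in the sources used here. Groups came from the sample titles, and genes were matched by symbol. All 11718 genes that reached 10 counts in 4 or more of the 8 samples were fitted with edgeR 4.0.16 (R 4.3.3), with TMM, a robust quasi-likelihood test without a block and Benjamini-Hochberg adjustment. Standard errors are the log2 fold change divided by the root of the F statistic. The study's methods used DESeq2, which was an alternative here (1.42.0), as was limma-voom (3.58.1). The fit was also run on simulated counts. These were drawn with the estimated library sizes and TMM factors built in, so that run does not test the choice of scaling. Ratios used counts plus 0.5 and two-sided exact permutation tests over 70 assignments, with Python 3.11.15. Coordinates and exon lengths came from GENCODE M21. The named genes are the 9 members, of each pathway list those called and up to 3 in each direction with the smallest p at an adjusted p below 0.05, the 3 most abundant markers of each list, and the 3 closest profiles per gene. Tbxa2r, Epx, Alox15 and the basophil genes beside Hdc were named outside this rule, and 1 gene that it names is not reported here. The members, lists and tests were chosen with earlier results of these data known.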

Additional observations from a re-analysis of the deposited data

How the results depend on the processing

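The number of genes called up at the thresholds of the study was 1 (Alox5ap) and changed most easily. It was 0 on total counts alone, 2 with limma-voom, 0 with glmTreat, which asks for a change above 2-fold and called 0 of all genes, and 0 to 3 with 1 sample left out in turn: 0 without control replicate 2, control replicate 3 or stress replicate 3, and 3 without control replicate 1 or 4. Over all genes the number called up was 198, and 76 to 340 with 1 sample left out. The number higher at an adjusted p below 0.05 was 6, 0 on total counts alone, 0 with glmTreat and 5 or 6 with 1 sample left out, and in the other fits it was 6. The number lower was 0, and 1 (Lta4h) on total counts alone, where 5811 of all 11718 tested genes were lower. The number called down was 0 in every fit. On total counts alone Alox5 turned to -0.070 and Lta4h passed at -0.86 (adjusted p = 0.033, edgeR), because that scale places the median gene at -0.82. With a sample left out the difference in the log2 ratio of Ptgs2 to Ptgs1 lay between -0.12 and 1.20 and that of Ltc4s to Lta4h between -0.29 and 0.78. The difference of Alox5ap to neutrophil markers lay between -0.32 and 0.047, to classical monocyte markers between -0.26 and 0.024 and to platelet markers between -0.027 and 0.12, and that of Tbxas1 to platelet markers between -0.041 and 0.060. With the mean of log2 marker counts no ratio changed direction. DESeq2, the other normalizations, the other count filters and leaving out the haemoglobin genes gave 6 genes higher and 1 called up.

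With the replicate number as a block, 2 genes were called up (Alox5ap and Tbxas1) and 6 were higher. Deviations of same-numbered samples from their group means correlated at 0.0621, 0.00044, -0.0446 and -0.16, which gave no sign of pairing by number. Whether same-numbered samples share a litter or batch is not given in the sources used here and was not tested. The paired ratios cannot go below p = 0.125 (exact sign-flip test), and their differences are the same as without pairing by construction.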

Other observations

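Of the genes next to these enzymes, Alox15, the lipoxygenase that can form hydroxy acids at the same carbon as Alox12, was looked at after its values had been seen. It had 1.68, 1.90, 2.30 and 1.58 CPM in the control samples and 1.96, 5.80, 2.43 and 2.08 CPM in the stress samples. Stress replicate 2 stood above all others, the groups overlapped, and the gene did not pass (log2 fold change 0.70, standard error 0.32, adjusted p = 0.157, edgeR). Hdc, the histamine-forming enzyme of basophils and neutrophils, rose from 9.99 ± 3.58 to 34.1 ± 2.69 CPM (SD, n = 4; log2 fold change 1.78, adjusted p = 0.00105, edgeR), while the basophil genes Ms4a2 (-1.05, adjusted p = 0.164) and Cpa3 (-0.48, adjusted p = 0.543) did not pass and Mcpt8, Fcer1a and Prss34 had too few counts to test. These were chosen after their values were seen.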
